A study of Mus musculus with 8 samples.

Results

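Blood cells carry a small set of miRNAs that other arterial cells make little of, and 8 assays for such miRNAs were read here out of 517 mouse miRNA assays. They are mmu-miR-142-3p, mmu-miR-142-5p, mmu-miR-223, mmu-miR-147, mmu-miR-511, mmu-miR-150, mmu-miR-451 and mmu-miR-486 (the prefix marks mouse and is left out below where the assay is clear), chosen by name, with earlier results of these data known. A ninth name on the list, miR-144, was not analysed here. The study collected early atherosclerotic plaque (4 samples, plaque 1 to 4) and undiseased arterial wall (4 samples, undiseased 1 to 4) by laser capture microdissection, in which tissue is cut from a section under the microscope. All mice were female and apoe-/-, a genotype without apolipoprotein E in which a fatty diet brings on plaques. Their age is given as 6-8 weeks, and both groups were on a diet with 21% crude fat and 0.15% cholesterol for 3 months. Tissue came from at least 40 sections per mouse. Plaque was taken from the aortic root, while the labels of the undiseased samples say only artery, so vessel site and disease cannot be told apart. No mouse without the apoe deletion or on another diet was part of the comparison. Each miRNA was measured by real-time PCR as a threshold cycle (Ct), the cycle at which fluorescence crosses a set line, so that more RNA gives a lower Ct.

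miRNAs are short RNAs that pair with messenger RNAs through their seed, the bases near their 5′ end, and lower the output of those messengers. The hairpin of miR-142 is transcribed in nearly all white blood cells and yields a miRNA from each arm. miR-223 is a myeloid miRNA of neutrophils, monocytes and platelets, miR-147 is induced in macrophages by Toll-like receptor signals, and miR-511 lies inside the macrophage mannose receptor gene. miR-150 marks mature B, T and NK lymphocytes. miR-451, transcribed together with miR-144, and miR-486 belong to red cells and their precursors.

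The 4 assays that gave results and had an entry in the RefSeq miRNA table (build GRCm38.p6) were matched to it by name. No amplified sequence was compared. The sequences of these 4 miRNAs are shown, each 5′ to 3′ with the seed (bases 2 to 8) in capitals. All lie on the plus strand: both miR-142 arms and miR-451 on chromosome 11 and miR-223 on chromosome X. Their seeds all differ, and among the 1679 mature miRNAs of the table no other carries the seed of one of these 4. The assays carry names of an older catalogue, and miR-150, miR-147, miR-511 and miR-486 are given by name only.
miR-142-3p, now miR-142a-3p, chr11:87756903-87756925: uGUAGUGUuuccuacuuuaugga
miR-142-5p, now miR-142a-5p, chr11:87756867-87756887: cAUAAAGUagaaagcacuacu
miR-223, now miR-223-3p, chrX:96242884-96242905: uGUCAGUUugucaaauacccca
miR-451, now miR-451a, chr11:78073186-78073207: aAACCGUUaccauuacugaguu
A pair of hairpins shows how the products lie in their precursors, with the mature miRNAs in capitals. In Mir142 the 5p arm (bases 4 to 24) and the 3p arm (bases 40 to 62) face each other across 15 loop bases. In Mir451a the single product (bases 17 to 38) runs from the stem into the loop (this miRNA is known to be cut by the Argonaute protein Ago2 in place of Dicer), and the Mir144 hairpin lies 99 bases upstream.
Mir142, chr11:87756864-87756927: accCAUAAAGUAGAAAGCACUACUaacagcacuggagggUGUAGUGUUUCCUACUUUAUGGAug
Mir451a, chr11:78073170-78073241: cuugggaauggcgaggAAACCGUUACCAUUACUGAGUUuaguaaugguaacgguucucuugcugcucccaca

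Samples differed in how early the miRNAs as a whole amplified and in how many were detected. A Ct under 35 counted as detected. Plaque samples detected 148 to 240 miRNAs and undiseased samples 227 to 288 (exact permutation test, two-sided, p = 0.0857). For the 124 miRNAs that all samples detected, the mean Ct was 26.3 to 29.9 in plaque and 24.7 to 26.6 in undiseased artery, a mean difference of 2.70 cycles (exact permutation test, two-sided, p = 0.0571, with 0.0286 the smallest p possible). Plaque 3 (29.9) and plaque 2 (28.8) were latest. The control RNA U6, read here in its wells on panel 1 of the assays, gave another order. Its Ct there was 13.45 to 19.6 in plaque and 14.5 to 15.9 in undiseased artery. Plaque 4 was the earliest and plaque 1 the latest of all 8. The amount of RNA per reaction was not measured here. The normalised level of a miRNA is that mean minus its own Ct, in cycles. A step of 1 cycle stands for a 2-fold change when every cycle doubles the product, and levels are compared only within 1 assay. Of the miRNAs that mark other cell types, both of smooth muscle fell in plaque, with a log2 fold change of -4.95 for miR-143 (limma adjusted p = 9.03e-05) and -5.30 for miR-145 (limma adjusted p = 3.51e-05), and both were called lower under each of the 6 other scalings as well. Their mean level was 1.45 to 3.06 in plaque and 7.01 to 7.55 in undiseased artery. Neither of the 2 endothelial miRNAs passed in the main fit, miR-126-3p at -1.15 (limma adjusted p = 0.291) and miR-126-5p at -2.02 (limma adjusted p = 0.0655). Their mean level was -3.14 to 0.58 in plaque and 0.22 to 1.54 in undiseased artery. Both were below 0 in all 7 scalings. miR-126-3p was called lower in 1 of them, raw Ct, and miR-126-5p in 2, raw Ct and quantile normalisation. Of 5 heart muscle miRNAs 3 were tested and 0 passed in the main fit: miR-1 (0.61), miR-133a (-0.26) and miR-133b (1.10, limma adjusted p = 0.0947). The level of miR-133b in the 3 plaque samples that detected it was above all undiseased ones. Of the 7 scalings, 1 called miR-133b higher, with each panel of assays centred (1.64, limma adjusted p = 0.0259), and 0 called miR-1 or miR-133a. miR-133a, found in all 8 samples, had a level of -2.13 to 5.97 in plaque and 2.82 to 3.94 in undiseased artery. miR-208 had a Ct of 31.4 in plaque 1 and 34.0 in plaque 3 and 40 in the other samples, and miR-499 had 40 in all. What part these shifts have in the values of the blood cell miRNAs was not tested. In tissue of mixed cells, fewer cells of a type and less miRNA per cell cannot be told apart.

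Across the blood cell miRNAs, 4 were detected widely enough to test (miR-142-3p, miR-223, miR-150 and miR-451), 1 was found in 5 samples (miR-142-5p), 1 in a single sample (miR-147), and miR-511 and miR-486 read 40, the value for no amplification, in all 8. None of the 4 tested passed an adjusted p of 0.05 in limma with Benjamini-Hochberg adjustment over 172 tested miRNAs, of which 34.3% passed. By unadjusted p in limma 1 of the 4, miR-451, was under 0.05, as were 45.3% of the 172, and by an exact permutation test, which put 29.7% of the 172 under 0.05, 0 were. Of all 517 assays, 180 were detected in no sample.

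**Figure D1:**
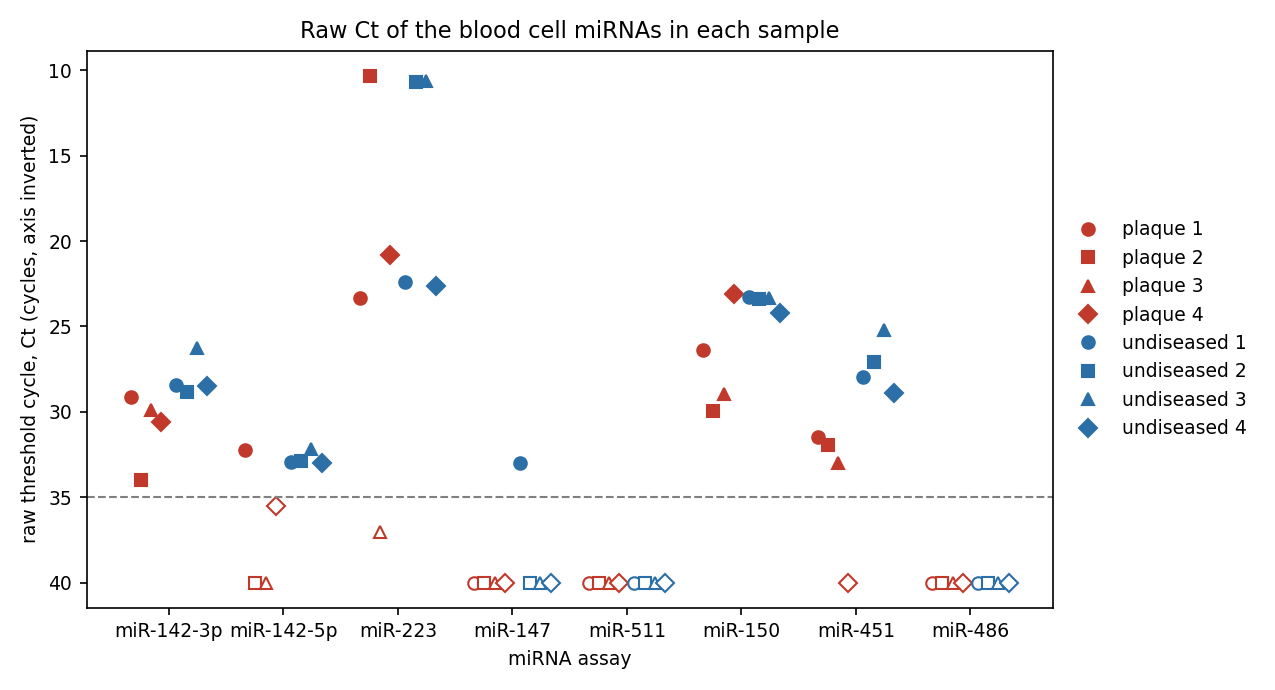
Raw Ct (cycles, inverted axis, so that more RNA is higher) of the 8 blood cell miRNAs in plaque 1 to 4 (red) and undiseased 1 to 4 (blue). Open symbols are wells at or past a Ct of 35 (dashed line), and a Ct of 40 means no amplification. miR-223 falls into separate sets of wells near 10 and 20 to 24 with 1 at 37.0, and miR-451 is at 40 in plaque 4 alone.

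The pan-leukocyte mmu-miR-142-3p was present in every sample of both tissues, and its normalised level overlapped between them. Its raw Ct was 29.2, 34.0, 29.9 and 30.6 in plaque 1 to 4, against 28.4, 28.8, 26.3 and 28.5 in undiseased 1 to 4. All plaque wells thus crossed later than all undiseased wells, by 2.91 cycles on average (exact permutation test, two-sided, p = 0.0286, the smallest possible), close to the 2.70 cycles by which the sample means differed. Lower raw signal in plaque was common: limma on raw Ct called 47.1% of 172 miRNAs, all of them lower. After normalisation the levels were -2.03, -5.15, 0.02 and -4.36 in plaque 1 to 4 and -3.41, -3.82, -1.59 and -1.84 in undiseased 1 to 4. Plaque 3 was the highest and plaque 2 the lowest of the 8, so that plaque samples spanned the whole undiseased range. The means were -2.88 ± 2.35 in plaque and -2.66 ± 1.12 in undiseased artery (SD, n = 4 each). The log2 fold change was -0.22 (SE 1.03, limma adjusted p = 0.878), with a 95% interval from -2.47 to 2.04, which leaves room for a 4.10-fold higher level in plaque. Its sign was not stable: it was above 0 with each panel of assays centred on its own mean (0.34) and in 4 of the 8 fits with a sample omitted (-1.13 without plaque 3 to 0.54 without plaque 2).

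The other arm of the same hairpin, mmu-miR-142-5p, amplified late, with a Ct of 32 or more wherever it amplified, so that its detection turned on the threshold. Its raw Ct was 32.2 in plaque 1, 40 in plaque 2 and 3 and 35.5 in plaque 4, against 33.0, 32.9, 32.2 and 33.0 in undiseased 1 to 4. It was thus detected in 1 of 4 plaque and 4 of 4 undiseased samples (Fisher's exact test, two-sided, p = 0.143). With a threshold of 38 it was detected in 2 of 4 plaque and 4 of 4 undiseased samples (exact p = 0.429), and with a threshold of 32 in no sample. Over the 80 miRNAs detected in at least 3 samples of just 1 group, 1.25% had an exact p under 0.05. At 35 the same pattern was common: 18 miRNAs were detected in 4 undiseased samples and in at most 1 plaque sample, and 0 the other way round. Plaque 1 was the only plaque sample that detected it. Leaving plaque 1 out thus fixed the counts at 0 of 3 and 4 of 4 (exact p = 0.0286), which is no separate support.

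The late amplification of plaque 2 and 3 as a whole limits what those missing wells can show. The mean undiseased level of miR-142-5p, -7.41 ± 0.732 (SD, n = 4), would give a Ct of 36.2 in plaque 2 and 37.3 in plaque 3, past the threshold of 35. In these samples a level equal to that of undiseased wall would therefore not have counted as detected. Both wells read 40, later than those Ct values. In plaque 4 it would give 33.7, and the well read 35.5. In plaque 1 the level was -5.12, above all undiseased samples (-7.93 to -6.35). The direction thus differed between the 2 plaque samples in which it amplified, 1 of them past the threshold.

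**Figure D2:**
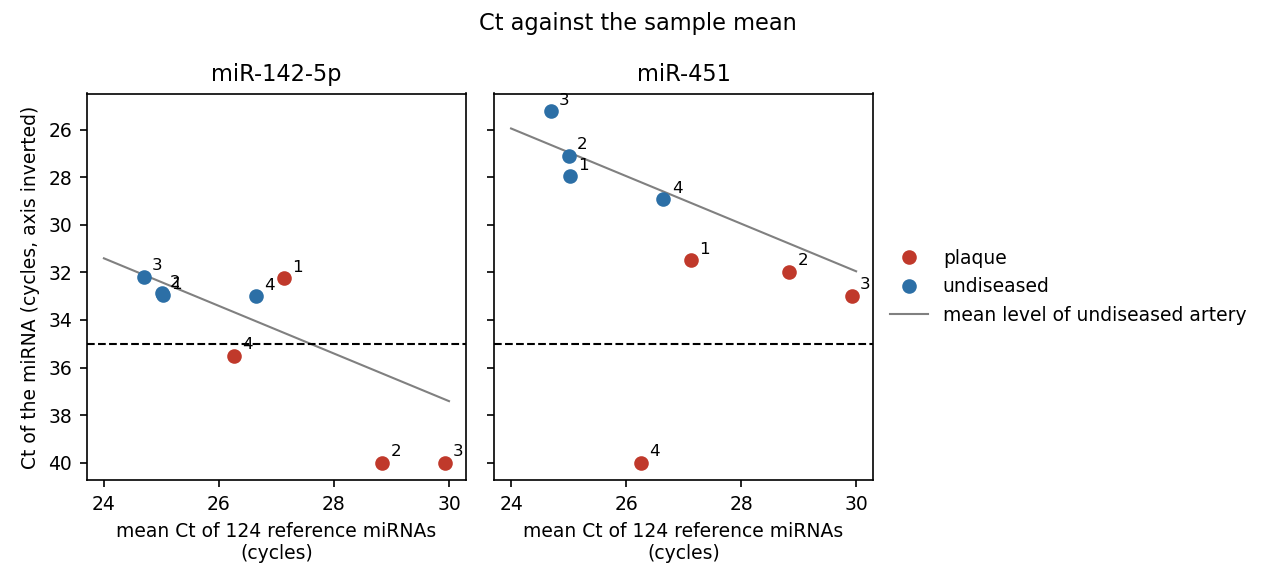
Ct of miR-142-5p (left) and miR-451 (right), inverted axis, against the mean Ct of the 124 reference miRNAs, both in cycles. Points are samples numbered by replicate, plaque in red and undiseased in blue, the grey line is the Ct that the mean undiseased level would give, and the dashed line is the detection threshold of 35. For miR-142-5p the grey line passes the threshold before plaque 2 and 3, whereas for miR-451 it stays well short of it in plaque 4, which read 40.

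Both arms of miR-142 could be set against each other in 5 samples. The 5p arm crossed 3.09 cycles after the 3p arm in plaque 1, and 4.52, 4.05, 5.91 and 4.52 cycles after it in undiseased 1 to 4 (mean 4.75 ± 0.804, SD, n = 4). Plaque 1 had the smallest gap of the 5. With 1 plaque sample the difference has no replicate check, and the gap in cycles between the arms mixes abundance with the efficiency of 2 assays.

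For mmu-miR-223, the miRNA of neutrophils, monocytes and platelets, the wells cannot be read as one scale. Its raw Ct was 23.3, 10.34, 37.0 and 20.8 in plaque 1 to 4, against 22.4, 10.7, 10.6 and 22.7 in undiseased 1 to 4. The wells of plaque 2, undiseased 2 and undiseased 3 lie within 0.370 cycles of each other and were the only 3 of 4240 wells with a Ct under 12. In those samples they came 6.59, 3.99 and 4.19 cycles before the earliest other miRNA, which was miR-720 in plaque 2 and miR-145 in both undiseased samples. In the samples with later wells, miR-223 came 6.60 to 19.5 cycles after the earliest other miRNA. The 8 other wells under a Ct of 15 were of U6, miR-720 and miR-145. Whether an instrument fault lies behind the 3 early wells was not tested.

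With the 3 early wells set aside, miR-223 had a level of 3.79 in plaque 1 and 5.44 in plaque 4, and of 2.60 in undiseased 1 and 3.99 in undiseased 4. The 2 plaque values overlapped the 2 undiseased ones. In plaque 3, the mean of those undiseased levels would give a Ct of 26.6, against 37.0 recorded. A fit with the early wells missing and no filter on detection, added after seeing the data, gave a log2 fold change of 1.32 on 2 samples a group (limma adjusted p = 0.306). With the early wells kept, and plaque 3 left out as undetected, it was 0.50. The 95% interval ran from -7.93 to 8.93 (limma adjusted p = 0.903), which bounds nothing of use. With a threshold of 38, which counts plaque 3 as detected, the log2 fold change was -3.49 (limma adjusted p = 0.548).

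Of the macrophage miRNAs, mmu-miR-147 had a Ct of 33.0 in undiseased 1 and 40 in the other 7 samples. miR-511 had 40 in all 8. At the level seen in undiseased 1 (-7.98), miR-147 would have had a Ct of 35.1, 36.8, 37.9 and 34.2 in plaque 1 to 4. In 3 of the 4 plaque samples that lies past the threshold of 35 and would not have counted as detected, though it is earlier than the 40 recorded. In undiseased 2, 3 and 4 it would have come at 33.0, 32.7 and 34.6. Across the table, 50 miRNAs were detected in exactly 1 sample.

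The lymphocyte miRNA mmu-miR-150 was detected in all 8 samples, tightly in undiseased wall and with a wide spread in plaque. Its raw Ct was 26.4, 29.9, 29.0 and 23.1 in plaque 1 to 4, against 23.3, 23.4, 23.3 and 24.2 in undiseased 1 to 4. The undiseased wells lay within 0.922 cycles of each other, while the plaque wells spread over 6.85 cycles, plaque 4 being the earliest of all 8 samples. Counted from the earliest, it was the 51st, 85th, 43rd and 25th detected miRNA in plaque 1 to 4 and between the 32nd and the 46th in undiseased artery, an order that also reflects the efficiency of each assay.

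Normalised, miR-150 stood at 0.75, -1.11, 0.95 and 3.16 in plaque 1 to 4 and at 1.73, 1.63, 1.35 and 2.44 in undiseased 1 to 4. The first 3 plaque samples were below every undiseased sample and plaque 4 above every one, so that the groups overlapped. The means were 0.94 ± 1.75 in plaque and 1.79 ± 0.46 in undiseased artery (SD, n = 4 each). The log2 fold change was -0.85 (SE 0.766, limma adjusted p = 0.425), with a 95% interval from -2.53 to 0.83. Single samples moved it: without plaque 4 the log2 fold change was -1.59 (limma adjusted p = 0.0530), and without plaque 2 it was -0.16. Without plaque 2 and 3 together, the samples with the latest mean Ct, it was 0.27. With each panel of assays centred on its own mean, the log2 fold change of miR-150 was -0.30 (limma adjusted p = 0.779). The opposite strand of the hairpin, miR-150*, had a Ct of 40 in all 8 samples.

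**Figure D3:**
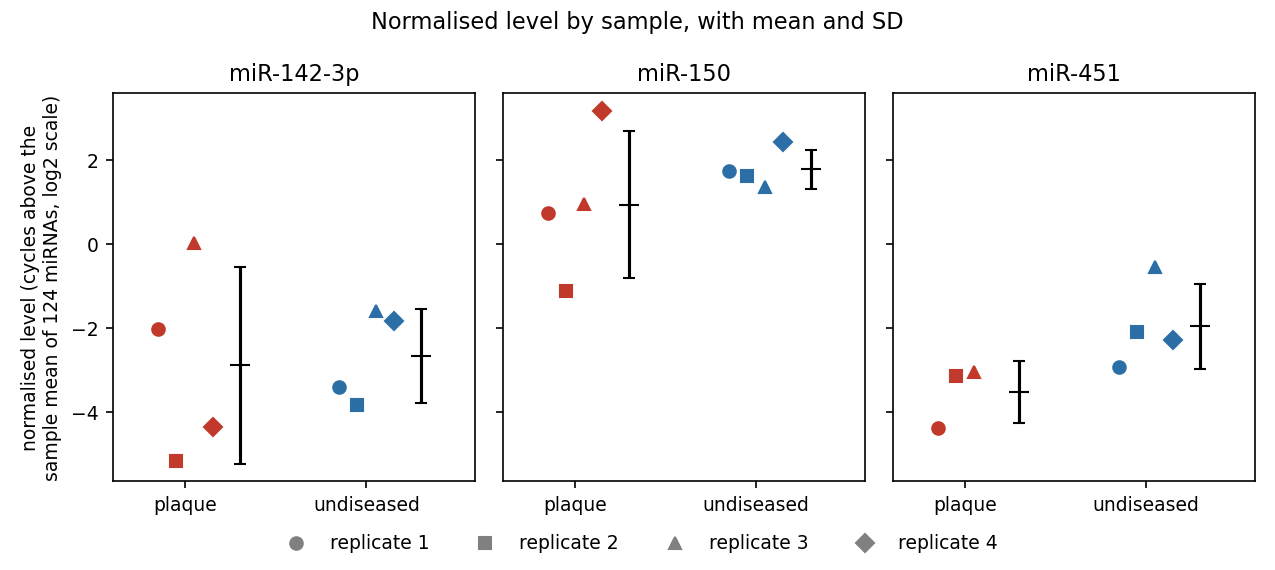
Normalised level (cycles above the mean of 124 reference miRNAs, a log2 scale) of miR-142-3p, miR-150 and miR-451 in each plaque (red) and undiseased (blue) sample, symbols by replicate, with mean and SD in black beside them. miR-142-3p and miR-150 overlap between the tissues, while the 3 plaque samples that detected miR-451 (-4.37 to -3.05) sit below the undiseased ones (-2.92 to -0.54).

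The red cell miRNA mmu-miR-451 had the largest difference of the blood cell miRNAs with readable wells, and it did not pass. Its raw Ct was 31.5, 31.97, 33.0 and 40 in plaque 1 to 4, against 27.9, 27.1, 25.2 and 28.9 in undiseased 1 to 4. The levels were -4.37, -3.13 and -3.05 in plaque 1, 2 and 3 and -2.92, -2.09, -0.54 and -2.28 in undiseased 1 to 4. Every plaque sample that detected it was below every undiseased one, by a margin of 0.132 cycles between plaque 3 and undiseased 1, and such separation held for 32.6% of all 172 tested miRNAs. The means were -3.52 ± 0.736 in plaque (SD, n = 3) and -1.96 ± 1.01 in undiseased artery (SD, n = 4). The log2 fold change was -1.56 (SE 0.654, limma unadjusted p = 0.0378, adjusted p = 0.0878), with a 95% interval from -3.01 to -0.11. An exact permutation test over 35 arrangements gave p = 0.0571.

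The scale of miR-451 depended on the reference. Under quantile normalisation it was called lower in plaque at -2.80 (limma adjusted p = 0.0206), in a fit that called 27.9% of the 172 and where the median of all tested miRNAs was itself -1.02. On raw Ct the difference was -4.85 (adjusted p = 0.00810), in a fit that called 47.1% and had a median of -2.59. With the control RNAs as reference it was -1.82 (adjusted p = 0.344) and with U6 it was -1.33 (adjusted p = 0.672). Each of these fits called 1.16% of the 172. With each panel centred it was -0.95 (adjusted p = 0.299). It was below 0 in all 24 alternative settings and fits that gave a value, from -4.85 to -0.95.

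The well of plaque 4 stands apart for miR-451. Plaque 4 had the earliest mean Ct of the plaque samples (26.3), and the mean undiseased level would have come at a Ct of 28.2 there. The fit leaves this well out as missing, and with undetected wells set to 35 instead the log2 fold change was -2.87 (limma adjusted p = 0.0944). There were 2 miRNAs, miR-451 and miR-376b, that plaque 4 lacked while all other samples detected them. The other red cell miRNA, miR-486, had a Ct of 40 in all 8 samples, including the undiseased ones where miR-451 came at 25.2 to 28.9.

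Differences between the blood cell miRNAs within 1 sample need no reference, and they too overlapped between the tissues. miR-142-3p crossed 2.78, 4.04, 0.92 and 7.53 cycles after miR-150 in plaque 1 to 4, against 5.14, 5.45, 2.94 and 4.27 in undiseased 1 to 4. Plaque samples held both the smallest and the largest gap. The mean difference between the tissues was -0.63 cycles (exact permutation test, two-sided, p = 0.686). miR-451 crossed 5.12, 2.02 and 4.00 cycles after miR-150 in plaque 1, 2 and 3 and 4.65, 3.72, 1.89 and 4.71 after it in undiseased 1 to 4. Here the means were 3.71 ± 1.57 in plaque (SD, n = 3) and 3.74 ± 1.32 in undiseased artery (SD, n = 4), with an exact p of 1. Set against miR-142-3p, miR-451 was later by 2.34 and 3.08 cycles in plaque 1 and 3 and earlier by 2.02 in plaque 2, and lay between 1.73 cycles before it and 0.44 cycles after it in undiseased artery (exact permutation p = 0.286). The gaps between miR-223, its early wells included, and miR-150 or miR-142-3p gave exact permutation p of 0.857 and 0.829. With Benjamini-Hochberg adjustment over these 5 pairs every p was 1. A p that misses the threshold does not show that the ratios were alike.

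Other miRNAs of blood cells are given from lists drawn up with earlier results known. Of 15 names on a leukocyte list, 10 were tested: 4 rose in plaque, 1 fell and 5 did not pass. Over all 172, 15.7% rose and 18.6% fell. The list's median log2 fold change was 1.00, beside -0.11 over all 172. The 3 tested blood cell miRNAs on this list, miR-142-3p, miR-223 and miR-150, were among those that did not pass. The 2 with the largest differences outside these were miR-146b, which shares its seed with the inflammatory miR-146a (3.60, limma adjusted p = 0.00382), and miR-342-3p of lymphoid cells (2.92, adjusted p = 0.0428). On the lymphocyte list, 7 of 9 were tested, 2 rose, 2 fell and 3 did not pass (median 0.09). miR-155, induced in activated macrophages and lymphocytes, rose there (2.79, adjusted p = 0.0117) beside miR-342-3p. The 2 that fell were miR-28 (-1.82, adjusted p = 0.0270) and miR-181a (-1.65, adjusted p = 0.0428). miR-155, miR-342-3p and miR-181a are on the leukocyte list too, so the lists are not separate evidence. On the red cell and platelet list, 6 of 8 were tested, 0 rose, 1 fell and 5 did not pass (median -0.89). The one that fell was miR-25 (-1.78, adjusted p = 0.0463), a miRNA of many tissues, and miR-92a (-1.07, adjusted p = 0.0866) did not pass. All tested members of these lists were on panel 1 of the assays, where 7 of 109 tested miRNAs rose and 30 fell. The median log2 fold change over these 109 was -0.73. On panel 2, 20 of 63 rose and 2 fell.

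**Figure D4:**
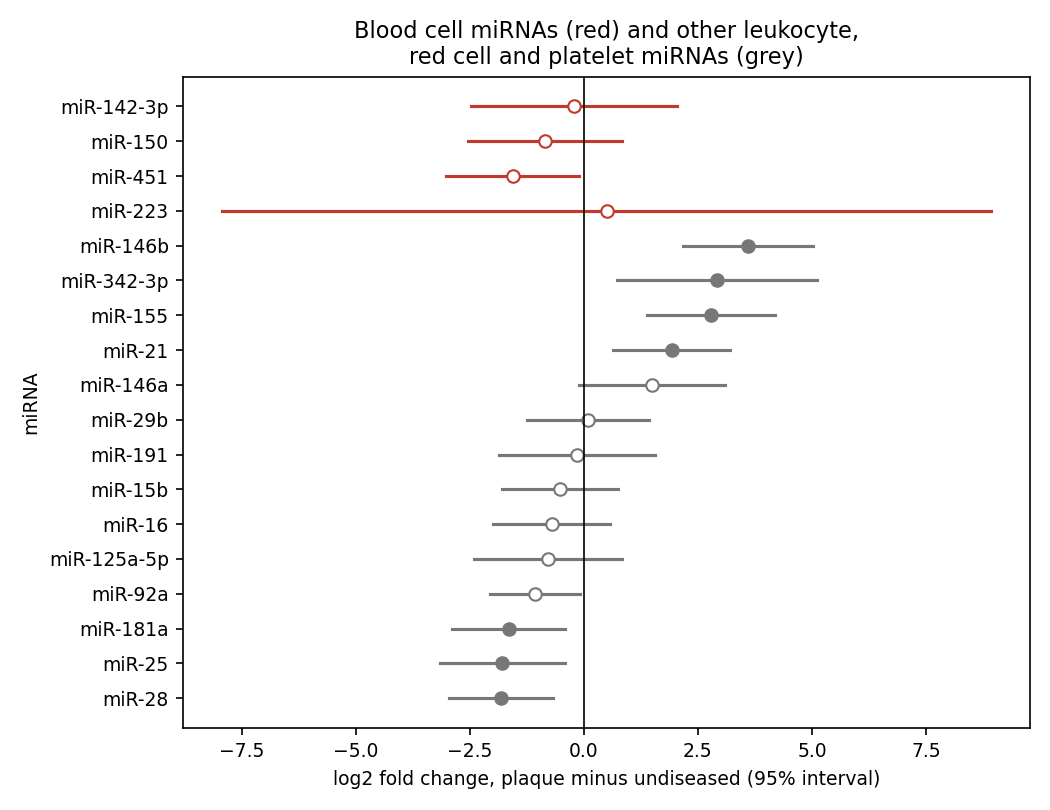
Log2 fold change, plaque minus undiseased, with limma's 95% interval, of the 4 tested blood cell miRNAs (red) and the 14 other tested miRNAs of the leukocyte, lymphocyte and red cell and platelet lists (grey). Filled points passed an adjusted p of 0.05. The red intervals of miR-142-3p, miR-150 and miR-223 cross 0, that of miR-451 ends at -0.11, and miR-223 spans -7.93 to 8.93.

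The miRNAs whose profile over the 8 samples was nearest to a blood cell miRNA were found by the root mean square difference between levels, each profile centred on its own mean, among 123 other miRNAs detected in all samples. Nearest to miR-150 was the endothelial miR-126-3p, at 0.342 cycles, against a median of 1.58 cycles over the 123. miR-16 (0.689) and miR-30a* (0.703) came next. miR-150 crossed 0.96, -0.02, 0.26 and 0.24 cycles after miR-126-3p in plaque 1 to 4, against 0.66, 0.37, 1.02 and 0.58 cycles in undiseased 1 to 4. The pair stayed within 1.02 cycles of each other in all 8 samples, while the level of miR-150 ran from -1.11 to 3.16. miR-126-3p was picked as the nearest of 123 on these same values, so the small gap is no separate support. For miR-142-3p the nearest were miR-19b (1.11), miR-324-5p (1.20) and miR-29b (1.42), beside a median of 1.90. miR-142-3p and miR-150 lay 1.87 cycles apart by this measure. The spread of miR-142-3p over the samples, 1.59 cycles, exceeded that of 85.5% of the 124 miRNAs, and that of miR-150, 1.19 cycles, exceeded that of 66.1%.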

How the data were processed

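The authors deposited 1 table of raw threshold cycles (Ct) for 8 samples, and the values carry no sign of normalisation or filtering. A Ct of 40 stands for no amplification. Per the labels, the RecoverAll kit was used for RNA and the dye was FAM. PCR settings, instrument and analysis program: not given in the sources used here. Among 530 rows are 517 mouse miRNA assays, 335 on panel 1 and 182 on panel 2, the second panel beginning where the first control RNA appears again. Columns were matched to samples through group and replicate number in the titles. The description of plaque 4 calls it replicate 3, and the title was used.

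A Ct under 35 counted as detected. Each sample was centred on its mean Ct over the 124 miRNAs that all samples detected. miRNAs detected in at least 3 samples of each group were fitted with limma 3.58.1 in R 4.3.3 (lmFit, eBayes, two-sided, missing values left out), with Benjamini-Hochberg adjustment over 172. Single values were compared by exact permutation over 70 arrangements (35 where plaque 4 was missing), detection by Fisher's exact test. The steps were tested on simulated data. The labels call the samples biological replicates, and no 2 samples were copies of each other. The correlation of deviations between same-numbered samples ran from -0.24 to 0.19, which cannot decide whether they came from the same mouse. The main fit treated the samples as unpaired.

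The members and the lists were chosen with earlier results of these data known. Named are all members, the 2 tested others with the largest difference on each list, and the 3 nearest profiles. miR-376b, miR-132, miR-28 and miR-181a were named after their values were seen. Sequences are from RefSeq (GRCm38.p6), in which 4 of the 8 members had their mature sequence. Alternatives were 2 detection thresholds, 6 other references, other handling of missing and early wells, a covariate, a replicate block and leaving out samples. On a PCR panel, the number of samples and late amplification limit the precision.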

Additional observations from a re-analysis of the deposited data

Results flagged for a closer look

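In 4 of 25 sets of 4 values examined, 1 sample stood apart from its group by Dixon's test, which chance would give in about 5% of sets, and the sets share samples. The raw Ct of miR-142-3p in undiseased 3 was 26.3, against 28.4 to 28.8 in the other undiseased samples. That of miR-142-5p in the same sample was 32.2, against 32.9 to 33.0. The raw Ct of miR-150 in undiseased 4 was 24.2, against 23.3 to 23.4, and the mean Ct of the 124 reference miRNAs in that sample was 26.6, against 24.7 to 25.0. After normalisation no level of a blood cell miRNA stood apart in this way.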

How the results depend on the processing

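The count of 0 called blood cell miRNAs (59 of 172 over all) held in 22 of 25 alternatives. The number called was 1 with quantile normalization (miR-451, -2.80; 48 of 172 over all), 1 with the replicate block (miR-223, 2.28, with its early wells in the fit; the block changed no other member's call; 49 over all) and 3 on raw Ct (miR-142-3p -2.91, miR-150 -3.54 and miR-451 -4.85; 81 over all, each lower), where the median of all tested miRNAs was -2.59. The sign of miR-142-3p turned with a threshold of 32 (0.36) and with each panel centred (0.34), and without 1 sample it ran from -1.13 to 0.54. The sign of miR-150 turned with mean raw Ct as a covariate (0.23) and without plaque 2 and 3 together (0.27). miR-223 turned with a threshold of 38 (-3.49), quantile normalization (-1.10), raw Ct (-1.57), undetected wells at 35 (-3.08), the covariate (-2.90) and without plaque 2 and 3 together (-4.03), and without 1 sample ran from -4.11 to 3.23. With wells under 12 or under 15 missing it could not be fitted under the filter, nor could miR-451 with a threshold of 32, nor either of them among miRNAs detected in all samples. Over all miRNAs, 59 calls became 2 with the control RNAs, 2 with U6, 35 with each panel centred, 13 with the covariate, 39 without plaque 2 and 3 together and 0 by exact permutation after adjustment (51 unadjusted), and 19 to 67 without 1 sample, 25, 19 and 20 of these being without undiseased 1, 2 and 3. The causes of these changes were not tested. The 22 alternatives with 0 blood cell miRNAs called include ones that called few or no miRNAs over all or could not fit a member. Such alternatives add little to that count. The difference in detection of miR-142-5p, plaque minus undiseased, was -3 at 35, 0 with a threshold of 32, -2 with 38 and -4 to -2 samples without 1 sample. The difference in mean raw Ct was 2.12 to 3.29 cycles without 1 sample, passing at 3.29 without plaque 4. Each group had 4 samples, or 3 in plaque for miR-223 and miR-451. A 2-fold lower level in plaque lies within the 95% intervals of all 4 tested members, that of miR-223 with its early wells included.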

Other observations

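The Ct values gather near whole cycles, most in plaque 3 and plaque 2. Of 1991 wells with a Ct below 40, 20.8% lay within 0.05 cycles of a whole number, a band that covers 10% of the scale. The share was 18.1%, 26.3%, 42.6% and 15.2% in plaque 1 to 4 and 18.0%, 16.6%, 22.5% and 16.3% in undiseased 1 to 4. Among wells at a Ct of 32 or later it was 61.1% in plaque 3 and 28.3% to 48.5% in the other 7 samples. Of the 38 wells of the blood cell miRNAs with a Ct below 40, 8 lay in the band, among them miR-142-3p in plaque 2 (33.99), miR-451 in plaque 2 (31.97) and plaque 3 (32.98) and miR-150 in plaque 3 (28.98).

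There were 44 miRNAs undetected in 1 sample alone, 35 of them with a Ct of 40 there and 9 with a later Ct than the threshold. The sample was plaque 3 for 30, plaque 2 for 10, plaque 4 for 2 and undiseased 1 and undiseased 4 for 1 each. In 20 of the 44 the mean level of the other samples would have given a Ct before 32 in the sample where the miRNA was missing. miR-451 in plaque 4 is one of them, at 28.9. miR-132, which is on the leukocyte list, had a Ct of 24.4 in plaque 4 and 40 in plaque 1, 2 and 3, against 26.0, 24.3 and 25.0 in undiseased 1 to 3 and 40 in undiseased 4.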
